A study of Mus musculus with 48 samples.

Results

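9 genes of the mouse liver were followed here, S100a10, Gpr39, Lypd1, Efhd2, Fam83f, Tbc1d19, Mocos, Foxk2 and E130311K13Rik, which the study lists as genes responding to valproic acid (VPA), a drug given against epilepsy and as a mood stabilizer. Each was found by its symbol and had 1 probeset of its own, so the list held 9 of the 35556 probesets on the array and of the 21789 probesets that carry a single gene symbol. The genes were chosen by a difference between VPA and saline in these same mice, so each such difference below is a description of how the genes were chosen, with no test, and only the comparisons of genotypes and the variation among mice were tested. The study names Lypd1 only in a joint entry with Gpr39, for 1 probeset. The probeset followed here for Lypd1 is a different one, which differed little with VPA and does not bear on that entry.

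Liver RNA of 48 male mice was hybridised to 48 arrays, 8 mice in each of 6 groups. Homozygous Wfs1 mutants (KO), heterozygotes (HZ) and wild type mice (WT) were injected into the peritoneum each day for 12 weeks, with 300 mg of VPA per kg of body weight or with 10 mL of saline per kg, from an age of 4 to 6 weeks. All mice, saline mice included, underwent a glucose tolerance test with 2 g/kg glucose 24 hours after the last injection, and were killed 24 hours later at 16 to 18 weeks. The mutation invalidates exons 7 and 8 of Wfs1 in the whole body and is not restricted to the liver. Values are log2 RMA levels, in which a difference of 1 is a change of 2 times, and levels of different probesets cannot be ranked against each other.

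VPA inhibits histone deacetylases, enzymes that remove acetyl groups from histones, and can thereby change the transcription of many genes, and the liver is the main site of its metabolism. Wfs1 encodes wolframin, which sits in the endoplasmic reticulum membrane and whose loss causes Wolfram syndrome in humans. The 9 genes do not form a pathway. S100a10 and Efhd2 encode calcium-related adaptor proteins at the membrane and the actin skeleton, Gpr39 and Lypd1 encode proteins of the cell surface, Fam83f and Tbc1d19 belong to families that steer kinases and Rab GTPases, Mocos encodes an enzyme and Foxk2 a transcription factor.

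Array medians lay between 6.90 and 7.03, and arrays correlated with each other by 0.971 to 0.994. The probeset of Wfs1 did not show the loss of the gene: it was lower by 0.15 (SE 0.07) in KO than in WT mice, with an adjusted p of 0.320 (limma, Benjamini-Hochberg over all probesets), and it also covers exons that the mutation leaves in place. Hepatocyte markers averaged 14.04 to 14.14 in VPA-treated and 14.05 to 14.15 in saline mice. In whole tissue, fewer cells of a type and less RNA per cell cannot be told apart.

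The 250 bases before the annotated start were read from RefSeq's annotation of GRCm38.p6 for 5 of the 9 genes. The windows of the 2 genes that were lower with VPA, Efhd2 and Foxk2, are shown with those of 2 genes that were higher, Gpr39 and E130311K13Rik, since the members of each pair can then be set side by side. Capitals mark the GC box GGGCGG, searched on both strands, as were the E-box CACGTG and the motif TAGGTCA bound by ROR and REV-ERB receptors.
Efhd2, chr4:141874921-141875170, minus strand: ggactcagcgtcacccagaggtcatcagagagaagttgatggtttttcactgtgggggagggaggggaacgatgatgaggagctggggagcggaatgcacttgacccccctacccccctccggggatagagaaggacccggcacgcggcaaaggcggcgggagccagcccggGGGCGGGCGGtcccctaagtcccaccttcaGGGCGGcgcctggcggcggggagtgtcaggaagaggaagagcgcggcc
Foxk2, chr11:121259737-121259986, plus strand: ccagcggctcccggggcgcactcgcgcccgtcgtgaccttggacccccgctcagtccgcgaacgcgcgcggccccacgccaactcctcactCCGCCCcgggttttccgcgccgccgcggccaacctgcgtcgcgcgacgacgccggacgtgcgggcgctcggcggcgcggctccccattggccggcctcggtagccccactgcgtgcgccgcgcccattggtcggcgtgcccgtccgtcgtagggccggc
Gpr39, chr1:125676746-125676995, plus strand: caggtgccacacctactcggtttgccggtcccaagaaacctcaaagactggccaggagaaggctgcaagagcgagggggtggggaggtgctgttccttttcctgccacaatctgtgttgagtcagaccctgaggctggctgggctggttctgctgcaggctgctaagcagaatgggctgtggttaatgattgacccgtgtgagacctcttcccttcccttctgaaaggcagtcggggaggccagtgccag
E130311K13Rik, chr3:63929473-63929722, minus strand: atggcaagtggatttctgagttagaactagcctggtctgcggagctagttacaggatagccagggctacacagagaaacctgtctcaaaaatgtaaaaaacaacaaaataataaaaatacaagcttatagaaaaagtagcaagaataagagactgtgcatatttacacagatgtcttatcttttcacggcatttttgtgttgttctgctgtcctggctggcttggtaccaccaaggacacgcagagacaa

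Efhd2 held 3 GC boxes, which began 78, 74 and 48 bases before the start, and the first and second of them overlapped. Foxk2 held 1, at 159 bases. Gpr39 and E130311K13Rik held none, and 32.7% of all 32851 windows of this length held at least 1. None of the 4 windows held an E-box or TAGGTCA, which 6.02% and 2.23% of all windows held. The window of Foxk2 was 78.4% G and C and that of Efhd2 67.2%, against 58.4% for Gpr39, 40.4% for E130311K13Rik and a median of 52.4% over all windows. Among the 3 windows of Lypd1, the fifth gene, the second held an E-box 32 bases before the start, and each held 1 GC box. These letters are a description of the windows, and no binding was measured.

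Averaged over the 3 genotypes, 6 of the 9 genes were higher and 2 were lower with VPA at an adjusted p under 0.05, where 8.61% of all probesets passed (4.01% higher and 4.6% lower). The higher genes were S100a10, Gpr39, Fam83f, Tbc1d19, Mocos and E130311K13Rik, by 0.27 to 0.41, and the lower ones were Efhd2, by 0.40, and Foxk2, by 0.23. Since the genes were chosen by their response to VPA in these mice, nothing is read from that count. Within genotypes the count was 3 of 9 in KO mice (S100a10, Fam83f and Mocos), where 0.0112% of all probesets passed, 4 of 9 in HZ mice (Efhd2, Tbc1d19, Mocos and Foxk2), where 10.5% passed, and 0 of 9 in WT mice, where 0.0703% passed. In WT mice 4 of the 9 and 1973 of all 35556 probesets were at an unadjusted p under 0.05 by limma. The counts in KO and HZ mice changed when single mice were left out. In KO mice the count ran between 0 (without KO VPA replicate 1 or 2 or KO saline replicate 8) and 6 (without KO saline replicate 2), and in HZ mice between 2 (without HZ saline replicate 1, where Mocos and Foxk2 were lost) and 6 (without HZ VPA replicate 2 or 5, where Gpr39 and Fam83f were gained). S100a10 differed by 0.56 to 0.75 in KO mice over all omissions. Fam83f and Mocos stood close to the threshold there and no longer passed without any 1 of 34 and 36 mice, many of them WT or HZ. Their differences in KO mice stayed at 0.48 to 0.57 and 0.32 to 0.42 over all omissions.

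Which mice decided the choice is not stated. Ranked by p among all 35556 probesets, 8 of the 9 stood between place 2 and place 41 for VPA against saline in KO mice, and between 86 and 397 for the mean over genotypes. Lypd1 stood at 5836 and 9458. The first place in KO mice belonged to Cenpm, which is not on the list and was higher by 0.83 (SE 0.13), and place 5 to Ppfibp2, higher by 0.30 (SE 0.06). For this reason differences of the VPA effect that involve KO mice are given below as values only.

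**Figure D1:**
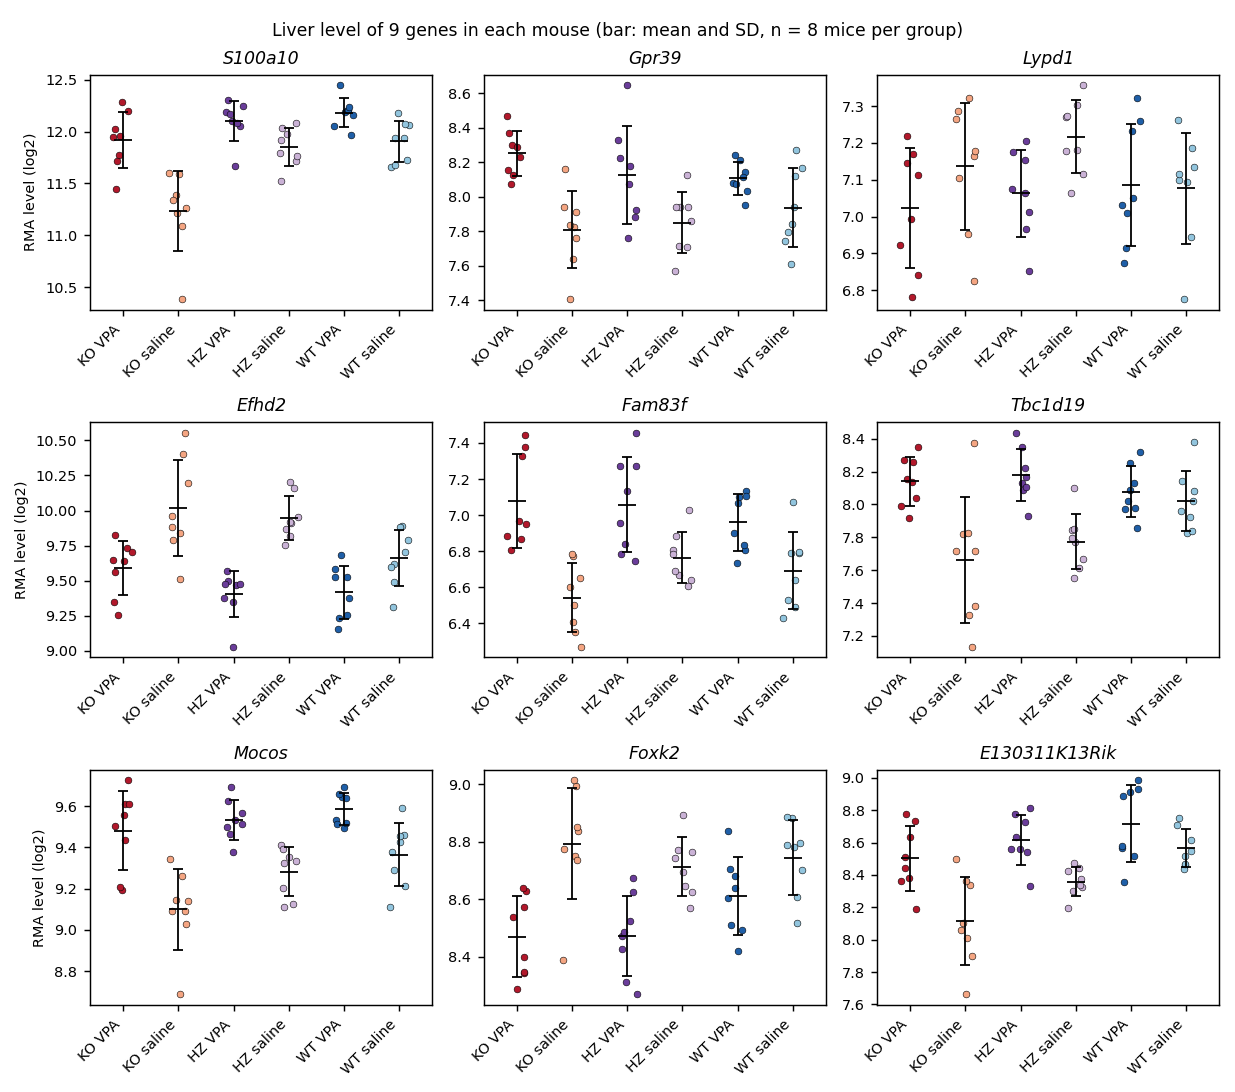
Level of each of the 9 genes (log2 RMA value, vertical axis) in every mouse, by group, with bars for the mean and SD of 8 mice. In KO mice the VPA and saline points of Fam83f do not overlap, in HZ mice those of Efhd2 do not, and the lowest mouse of all is a KO saline mouse for S100a10, Gpr39, Fam83f, Tbc1d19, Mocos and E130311K13Rik.

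S100a10 encodes the light chain that binds annexin A2 and has a part in the plasminogen system. In KO livers it lay at 11.45, 11.95 and 12.29 (lowest, median and highest) with VPA and at 10.38, 11.30 and 11.60 with saline. In HZ livers these values were 11.67, 12.14 and 12.31 with VPA and 11.53, 11.86 and 12.08 with saline. In WT livers they were 11.96, 12.20 and 12.45 with VPA and 11.65, 11.94 and 12.18 with saline. The groups overlapped in every genotype, but 7 of 8 KO mice given VPA stood above all KO saline mice, and 23 of 24 VPA-treated mice stood above the saline mean of their genotype. VPA was followed by a level higher by 0.68 (SE 0.12) in KO, 0.25 (SE 0.12) in HZ and 0.28 (SE 0.12) in WT mice. The low end of the KO saline group was a single mouse at 10.38, and without any 1 mouse the mean difference over genotypes stayed between 0.36 and 0.43.

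Gpr39 encodes a G protein-coupled receptor that senses zinc. Its level in KO livers was 8.08, 8.26 and 8.47 with VPA and 7.41, 7.83 and 8.16 with saline. In HZ livers it was 7.76, 8.13 and 8.65 with VPA and 7.57, 7.90 and 8.13 with saline, and in WT livers 7.95, 8.10 and 8.24 with VPA and 7.61, 7.89 and 8.27 with saline. The WT mice given VPA lay wholly inside the range of WT saline mice, whereas 5 of 8 KO mice given VPA exceeded every KO saline mouse. The differences were 0.44, 0.28 and 0.17 in KO, HZ and WT mice (SE 0.10 each).

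Lypd1, the neighbour of Gpr39 on chromosome 1, encodes a small membrane-anchored protein of the LY6 and uPAR family, related to modulators of nicotinic acetylcholine receptors. Its own probeset lay at 6.78, 7.05 and 7.22 in KO livers with VPA and at 6.82, 7.17 and 7.32 in KO livers with saline. The groups overlapped throughout in KO and WT mice, and the mean over genotypes was lower by 0.09 (SE 0.04) with VPA, with 18 of 24 treated mice below their saline mean. In HZ mice, all 8 treated livers stood below the saline mean and the difference was -0.15 (SE 0.07), against -0.11 in KO and 0.01 in WT mice. Between mice of a group, Lypd1 and Gpr39 correlated by -0.19, which did not pass (adjusted permutation p = 0.344 over 36 pairs).

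Efhd2 encodes swiprosin, a calcium-binding protein that bundles actin in immune and other cells. In HZ livers it lay at 9.03, 9.47 and 9.57 with VPA and at 9.75, 9.91 and 10.21 with saline. These groups did not overlap, which held for 1.7% of all probesets in HZ mice, while in WT mice it held for 0.045% of all probesets and for none of the 9 genes. In KO livers it was 9.25, 9.64 and 9.82 with VPA and 9.51, 9.92 and 10.55 with saline, and in WT livers 9.15, 9.45 and 9.68 with VPA and 9.31, 9.66 and 9.89 with saline. All 8 treated mice stood below the saline mean in KO and in HZ livers and 7 of 8 in WT livers. The level was lower by 0.43 in KO, 0.54 in HZ and 0.24 in WT mice (SE 0.11 each).

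Fam83f belongs to a family of scaffold proteins that bind casein kinase 1 isoforms. Its level in KO livers was 6.80, 6.96 and 7.44 with VPA and 6.27, 6.55 and 6.79 with saline. No KO mouse given VPA fell within the saline range, which held for 0.0225% of all probesets in KO mice. In HZ livers the values were 6.74, 7.05 and 7.46 with VPA and 6.61, 6.74 and 7.03 with saline, and in WT livers 6.74, 6.98 and 7.13 with VPA and 6.43, 6.71 and 7.07 with saline. The groups overlapped in HZ and WT mice, although 7 of 8 and 8 of 8 treated mice stood above the saline mean. The differences were 0.53, 0.29 and 0.27 in KO, HZ and WT mice (SE 0.10 each).

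Tbc1d19 carries the TBC domain, by which related proteins switch off Rab GTPases of membrane traffic. It lay at 7.92, 8.15 and 8.35 in KO livers with VPA and at 7.13, 7.72 and 8.37 in KO livers with saline. In HZ livers it lay at 7.93, 8.15 and 8.44 with VPA and at 7.55, 7.78 and 8.10 with saline, and in WT livers at 7.86, 8.06 and 8.32 with VPA and at 7.82, 7.99 and 8.38 with saline. VPA-treated mice of the 3 genotypes spanned much the same range, and the medians of KO and HZ saline mice lay below that of WT saline mice. The highest KO saline mouse, replicate 2, was above every KO mouse given VPA. VPA was followed by a level higher by 0.48 in KO, 0.40 in HZ and 0.06 in WT mice (SE 0.11 each), and in WT mice 4 of 8 treated livers stood above the saline mean and 4 below.

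Mocos encodes molybdenum cofactor sulfurase, which adds the sulfur that xanthine dehydrogenase and aldehyde oxidases need to work. In KO livers the level was 9.19, 9.53 and 9.73 with VPA and 8.69, 9.12 and 9.34 with saline. In HZ livers it was 9.38, 9.52 and 9.69 with VPA and 9.11, 9.33 and 9.41 with saline, and in WT livers 9.49, 9.59 and 9.69 with VPA and 9.11, 9.40 and 9.59 with saline. Mocos was the only one of the 9 genes for which all 24 treated mice stood above the saline mean of their genotype, although the groups overlapped in each genotype. The differences were 0.38, 0.25 and 0.22 in KO, HZ and WT mice (SE 0.07 each).

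Foxk2 encodes a forkhead transcription factor that recruits the SIN3 and BAP1 complexes to DNA. Its level was 8.29, 8.47 and 8.64 in KO livers with VPA and 8.39, 8.81 and 9.01 in KO livers with saline. In HZ livers it was 8.27, 8.48 and 8.67 with VPA and 8.57, 8.72 and 8.90 with saline, and in WT livers 8.42, 8.62 and 8.84 with VPA and 8.52, 8.79 and 8.89 with saline. The groups overlapped in each genotype, and 23 of 24 treated mice stood below their saline mean. A single KO saline mouse, at 8.39, reached into the lower part of the treated group. The level was lower by 0.32 in KO, 0.24 in HZ and 0.13 in WT mice (SE 0.07 each).

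E130311K13Rik, an uncharacterised gene on chromosome 3, lay at 8.19, 8.48 and 8.78 in KO livers with VPA and at 7.66, 8.08 and 8.50 in KO livers with saline. In HZ livers it lay at 8.33, 8.60 and 8.81 with VPA and at 8.19, 8.36 and 8.48 with saline, and in WT livers at 8.36, 8.73 and 8.98 with VPA and at 8.44, 8.53 and 8.75 with saline. In HZ mice 7 of 8 treated livers exceeded every saline liver, whereas WT mice given VPA spread both above and below the WT saline range. VPA was followed by a level higher by 0.39 in KO, 0.26 in HZ and 0.15 in WT mice (SE 0.09 each).

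**Figure D2:**
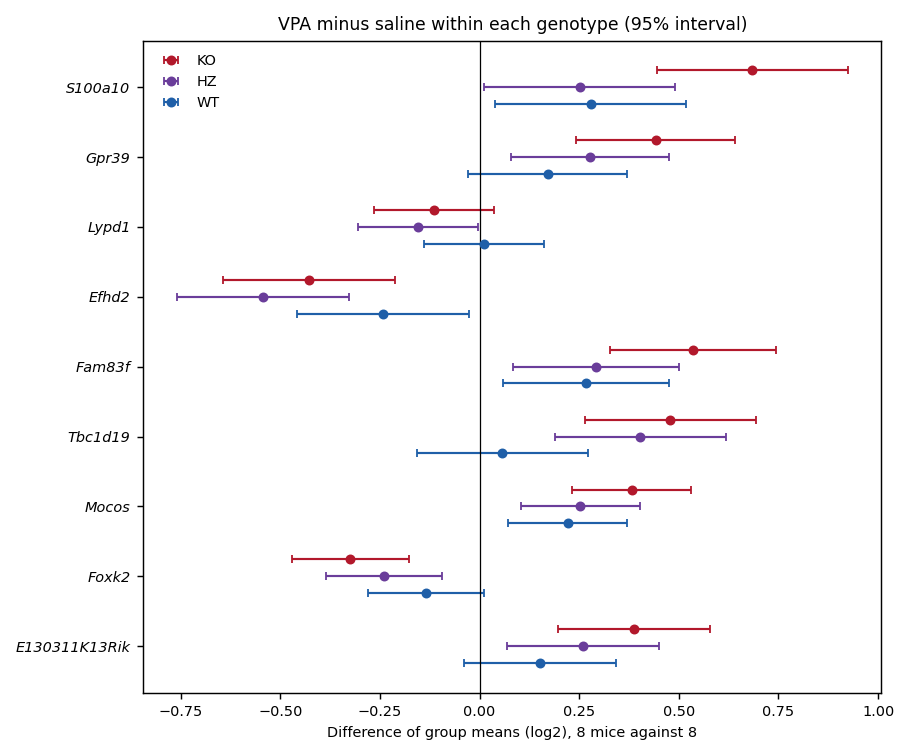
Difference between VPA-treated and saline mice (log2, horizontal axis) for each gene in KO, HZ and WT mice, with 95% intervals. The KO point lies farthest from 0 for 7 of the 9 genes, the HZ point for Efhd2 and Lypd1, and the WT point is nearest to 0 for 8 of the 9. The choice of the genes may give this order by itself.

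The size of the difference was largest in KO mice for 7 of the 9 genes and smallest in WT mice for 8, with S100a10 the exception. Genes chosen by KO mice could show this order through the choice alone, so it is a description. The F test of the interaction between genotype and treatment passed for 0 of the 9 (adjusted p of 0.490 for Tbc1d19 to 0.809 for Lypd1, limma with Benjamini-Hochberg), where 0.0816% of all probesets passed. At an unadjusted p under 0.05 by that test were 2 of the 9, S100a10 and Tbc1d19, and 2806 of all 35556 probesets. The test includes KO mice, so nothing is read from it. The largest gaps between genotypes were those of Tbc1d19, whose VPA difference was 0.42 (SE 0.15) larger in KO than in WT mice, and of S100a10, at 0.41 (SE 0.17). As the 9 genes ranked higher in KO mice than over all genotypes, these gaps are values only. HZ against WT mice could be tested apart from that choice, and the VPA effect differed for 0 of the 9 genes, as for 0% of all probesets. Of the 9, Tbc1d19 alone was at an unadjusted p under 0.05 by limma (difference of the effects 0.35, SE 0.15, adjusted p = 0.600), as were 2754 of all 35556 probesets. The 95% intervals of the other 8 reached from -0.61 for Efhd2 to 0.39 for Gpr39, so differences of that size are not excluded by these numbers of mice.

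The comparison of genotypes over both treatments is another contrast than VPA against saline. It uses the same mice, KO mice included, and the same spread per probeset, and its independence from the choice of the genes was not tested. In KO against WT mice, 3 of the 9 genes fell and 1 rose, where 2.94% of all probesets passed (1.37% higher and 1.57% lower). S100a10 fell by 0.47 on the log2 scale (SE 0.08, adjusted p = 0.000406 by limma), and 14 of 16 KO mice lay below the WT mean of their treatment. Over both treatments it lay at 10.38, 11.60 and 12.29 (lowest, median and highest) in KO and at 11.65, 12.07 and 12.45 in WT mice. E130311K13Rik fell by 0.33 (SE 0.07, adjusted p = 0.00172), also with 14 of 16 KO mice below, at 7.66, 8.36 and 8.78 in KO and 8.36, 8.57 and 8.98 in WT mice. Both ranges overlapped, and both calls held when any single mouse was left out. With a clock index in the fit, described further on, the differences were -0.39 (SE 0.11, adjusted p = 0.0866 by limma) and -0.26 (SE 0.09, adjusted p = 0.165), and neither call held.

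Mocos fell by 0.19 (SE 0.05, adjusted p = 0.0369) in KO mice, 13 of 16 of which lay below the WT mean, and Efhd2 rose by 0.26 (SE 0.08, adjusted p = 0.0419), with 13 of 16 above. Both calls by limma stood close to the threshold and were lost without any 1 of many mice, while the differences moved little. Efhd2 no longer passed without any of 18 mice (KO VPA replicates 2, 4, 5, 6, 7 and 8, KO saline replicates 4, 5, 7 and 8, WT VPA replicates 1, 2 and 6, WT saline replicates 1, 2, 3, 7 and 8), with differences of 0.23 to 0.30 and adjusted p up to 0.0900 in limma over all omissions. Mocos no longer passed without any of 14 (KO VPA replicates 5, 6 and 7, KO saline replicates 4, 5, 6 and 8, WT VPA replicates 1, 2, 3 and 6, WT saline replicates 2, 4 and 6), with differences of -0.20 to -0.16 and adjusted p up to 0.0724. With the clock index in the fit, Efhd2 differed by 0.03 (SE 0.08, adjusted p = 0.973 by limma) and Mocos by -0.10 (SE 0.07, adjusted p = 0.678). For these 4 genes the KO difference ran against the VPA difference: S100a10, Mocos and E130311K13Rik were lower in KO and higher with VPA, and Efhd2 was higher in KO and lower with VPA. The VPA direction comes from the choice of the genes in these mice, KO mice included, so this is a description. Among the others, none of which passed, Gpr39 (0.01, SE 0.07), Lypd1 (-0.001, SE 0.05) and Foxk2 (-0.05, SE 0.05) shared the direction of their VPA difference. Fam83f (-0.02, SE 0.07) and Tbc1d19 (-0.15, SE 0.08) ran against theirs.

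Other genes moved in KO against WT mice beside these 4. Of 19 clock genes, 8 rose and 2 fell, Ciart rising by 1.46 (SE 0.29, adjusted p = 0.00159 by limma) and Per1, a repressor of the clock, by 1.17 (SE 0.25, adjusted p = 0.00324). Among markers of other cells, 1 of 2 erythroid, 1 of 8 lymphocyte and 1 of 5 cholangiocyte markers passed. Alas2, an erythroid enzyme of heme synthesis, fell by 1.24 (SE 0.17, adjusted p = 6.95e-06 by limma), Cd4 of lymphocytes by 0.35 (SE 0.06, adjusted p = 0.000208) and Sox9 of cholangiocytes by 0.30 (SE 0.08, adjusted p = 0.0300). The other markers of these lists did not pass, so a change in the number of such cells is not read from them. No Kupffer, endothelial, stellate, neutrophil or hepatocyte marker passed. The part of clock genes and of other cells in the 4 calls was not tested. Aox1 and Aox3, aldehyde oxidases that Mocos activates, fell by 0.41 (SE 0.09, adjusted p = 0.00651 by limma) and 0.81 (SE 0.13, adjusted p = 0.00012) in KO mice. They were the only 2 of 13 genes of molybdenum cofactor synthesis and its enzymes that passed there. Xdh, another such enzyme, differed by 0.15 (SE 0.11), Aox4 by 0.00 (SE 0.05) and Aox2 by -0.04 (SE 0.06).

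**Figure D3:**
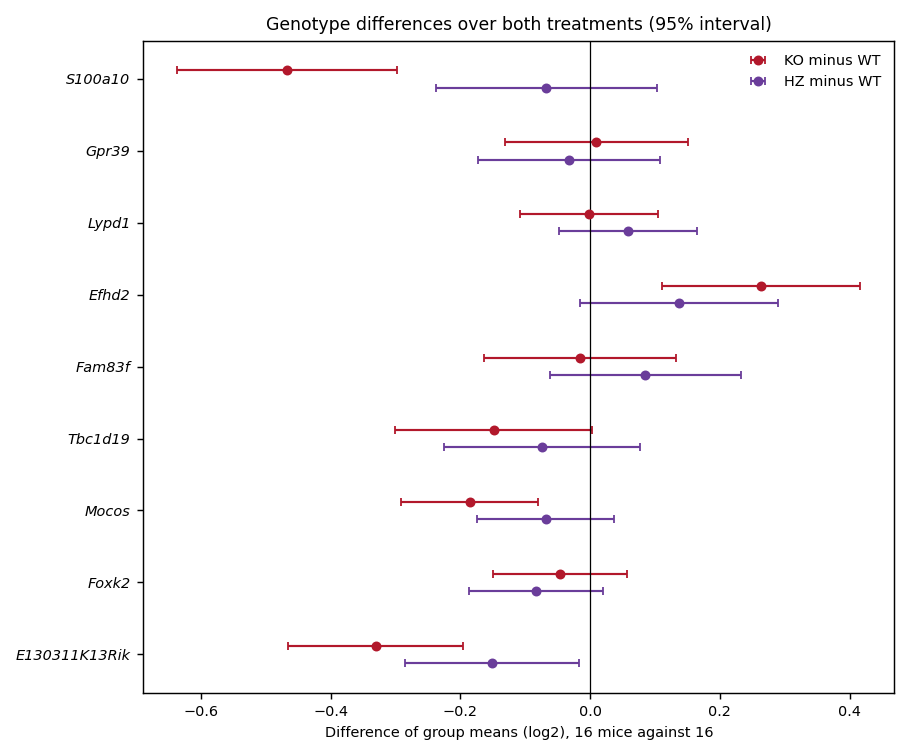
Difference of KO and of HZ mice from WT mice over both treatments (log2, horizontal axis) with 95% intervals, 16 mice against 16. S100a10 and E130311K13Rik lie lowest in KO mice, at -0.47 and -0.33, Efhd2 highest at 0.26, and the HZ interval leaves 0 aside for E130311K13Rik alone.

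The other 5 genes did not pass in KO against WT mice. Tbc1d19 differed by -0.15 (SE 0.08), with a 95% interval of -0.30 to 0.00, and the intervals of Gpr39, Lypd1, Fam83f and Foxk2 lay between -0.16 and 0.15. HZ mice did not differ from WT mice at the threshold for any of the 9 genes, where 0.00281% of all probesets passed. At an unadjusted p under 0.05 by limma were 1919 of all 35556 probesets and 1 of the 9 genes, E130311K13Rik at -0.15 (SE 0.07, adjusted p = 0.868). Its 3 genotypes stood in order, with medians of 8.36 in KO, 8.46 in HZ and 8.57 in WT mice, and neither KO and HZ nor HZ and WT mice differed beyond the threshold. S100a10 also fell in KO against HZ mice, by 0.40 (SE 0.08, adjusted p = 0.00455 by limma), where 1.44% of all probesets passed (0.779% lower) and no other of the 9 genes did.

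Within saline mice alone, S100a10 was lower in KO than in WT mice by 0.67 (SE 0.12) and E130311K13Rik by 0.45 (SE 0.09), and these 2 of the 9 passed where 0.79% of all probesets did (0.498% lower). This contrast shares its KO saline mice with the VPA difference in KO mice, so it is given as a description. The S100a10 level of KO mice given VPA (median 11.95) was close to that of WT mice given saline (median 11.94). Of the spread of S100a10 over the 48 mice, 29.3% went with genotype, 28.3% with treatment and 6.75% with their interaction. For Mocos, Fam83f and Efhd2, the shares going with treatment were 44.1%, 43.1% and 41.9%, and for Lypd1 8.09%.

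Correlations between the genes within a group are not a difference between VPA and saline, although the spread of each gene enters a choice by p. After each group's mean was removed, 12 of the 36 pairs of genes correlated at an adjusted p under 0.05 over 48 mice (permutation test, two-sided, 100000 resamples within groups, Benjamini-Hochberg over 36 pairs), 7 of them positively and 5 negatively. The strongest was Tbc1d19 with Mocos, at a Pearson's r of 0.663 (permutation p = 3e-05, adjusted p = 0.00108) and a Spearman's rho of 0.637 (permutation p = 1e-05, the smallest these resamples can give, adjusted p = 0.00036). Without the 2 mice farthest from the median of Tbc1d19 the r was 0.552. For each pair the 2 mice were those farthest in only 1 of its genes, the one named first in the opening list. Extreme mice of the other gene stayed in. Tbc1d19 also went with E130311K13Rik (r of 0.600, rho of 0.528) and with Gpr39 (r of 0.550, rho of 0.575), and Mocos with E130311K13Rik (r of 0.548, rho of 0.546), each at an adjusted permutation p of 0.00135 for r. Without the 2 farthest mice these were 0.447, 0.524 and 0.536, and all 3 still passed. A mouse high in one of these genes thus tended to be high in the others, within its own group. How many pairs of other genes would pass was not tested. The count of 12 of 36 is therefore a description, and it is not read as a trait of the genes followed here.

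Efhd2 and Foxk2, the genes lower with VPA, correlated by 0.503 (rho of 0.428, permutation p = 0.00155, adjusted p = 0.0093) and by 0.422 without the 2 farthest mice. Efhd2 also ran against E130311K13Rik (r of -0.422) and Fam83f (r of -0.362), and Foxk2 against Fam83f (r of -0.384), each at an adjusted permutation p of 0.0429, and none of these 3 passed without the 2 farthest mice. Fam83f went with E130311K13Rik (r of 0.481, rho of 0.487, adjusted permutation p = 0.00655), and Lypd1 ran against E130311K13Rik (r of -0.446, rho of -0.456, adjusted permutation p = 0.0316). S100a10 was in none of the 12 pairs by r. Its highest correlation was to Mocos (r of 0.367, adjusted permutation p = 0.106), which passed by rho (0.397, adjusted permutation p = 0.0402) and without the 2 farthest mice (r of 0.449, adjusted permutation p = 0.0174). By rho, 11 of the 36 pairs passed. The level of an array as a whole is shared by all probesets on it, and its part in these correlations was not tested.

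**Figure D4:**
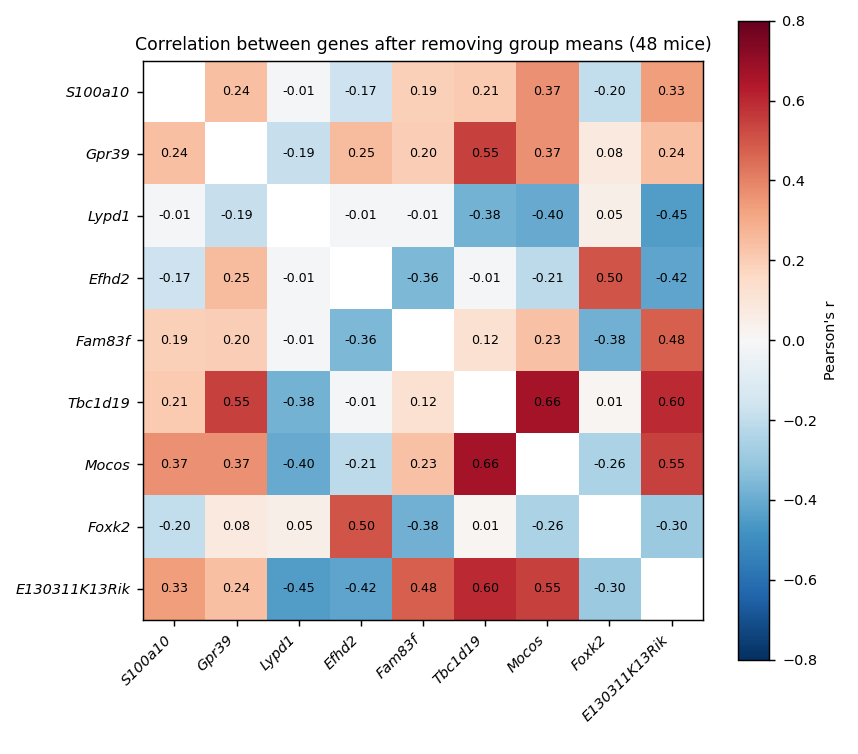
Pearson's r between the genes over 48 mice after each group's mean was removed, from blue (negative) to red (positive). Tbc1d19, Mocos and E130311K13Rik form a positive block, Efhd2 and Foxk2 correlate by 0.50, and Lypd1 is negative with Tbc1d19, Mocos and E130311K13Rik.

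By the same measure, each gene was set against all other genes with a single symbol. The 2 most like S100a10 were Nans (r of 0.578) and Cd164 (0.576), the lowest such values of the 9, and the 2 most like Efhd2 were Klf3 (0.837) and Rhbdd2 (0.832), the highest. Gpr39 went most with Gpr19 (0.714) and Ikbkb (0.710), Lypd1 with C130036L24Rik (0.771) and Klk6 (0.745), and Fam83f with Lce3e (0.647) and Hnf4g (0.618). Tbc1d19 went most with Zfp27 (0.783) and Fuca2 (0.733), Mocos with Ppp6r2 (0.725) and Slc23a1 (0.725), Foxk2 with Spata2 (0.653) and Nolc1 (0.618), and E130311K13Rik with Hmgxb4 (0.780) and Gyg (0.761). All are the extremes of many correlations over the same 48 mice and are descriptions. Of these 18 genes, 5 also passed in VPA against saline, Gyg by 0.22, Nans by 0.20, Hmgxb4 by 0.19, Ppp6r2 by 0.14 and, in the lower direction, Rhbdd2 at -0.21.

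Clock genes moved with VPA in these livers. Of 19 measured clock genes, 5 rose and 12 fell, with a median difference of -0.56, against -0.02 over all probesets. Ciart, a repressor of the clock, fell by 2.07 on the log2 scale (SE 0.24, adjusted p = 7.26e-08 by limma), and Dbp, a clock output factor, fell by 1.92 (SE 0.17, adjusted p = 5.94e-11). An index per mouse, the mean z-score of 4 clock genes minus that of 8 others that oppose them, averaged -0.26 ± 0.90 in KO mice with VPA and -0.99 ± 0.86 in KO mice with saline (SD, n = 8 each). In HZ mice it averaged 1.78 ± 0.65 with VPA and -2.18 ± 0.45 with saline, and in WT mice 2.13 ± 0.72 with VPA and -0.48 ± 0.79 with saline. The treatments did not overlap in HZ and WT mice and did in KO mice. The hour at which each mouse was killed is not given in the sources used here, and its part in these differences was not tested.

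Between mice of a group, Efhd2 was the only one of the 9 genes that went with the index past the threshold (r of -0.557, permutation p = 0.00016, adjusted over 9 genes p = 0.00144, rho of -0.557). Without the 2 mice farthest from the median of the index, its r was -0.531. With the index in the fit, the VPA difference of Efhd2 over the genotypes was -0.01 (SE 0.11), where without it the value was -0.40 (SE 0.06). Tbc1d19 kept 98.8% of its difference, Gpr39 77.1%, S100a10 67.4%, E130311K13Rik 58.2%, Mocos 51.5%, Foxk2 46% and Fam83f 35.2%. In that fit 0 of the 9 genes passed, and 0 of all probesets did, with a standard error for S100a10 of 0.14 with the index and 0.07 without it. In KO mice, where the index differed least between treatments, the 9 genes kept between 72.1% (Efhd2) and 99.8% (Tbc1d19), and S100a10 was higher by 0.64 (SE 0.12) with the index. In HZ mice Tbc1d19 kept 98.5%, S100a10 14.9%, Foxk2 14.9% and Mocos 11.1%, and Efhd2 and Fam83f changed sign, to 0.10 (SE 0.17) and -0.09 (SE 0.19). In WT mice Tbc1d19 kept 92.8%, Mocos 32.9% and Fam83f 5.13%, and Efhd2 changed sign, to 0.18 (SE 0.13), as did Foxk2, to 0.00 (SE 0.10).

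**Figure D5:**
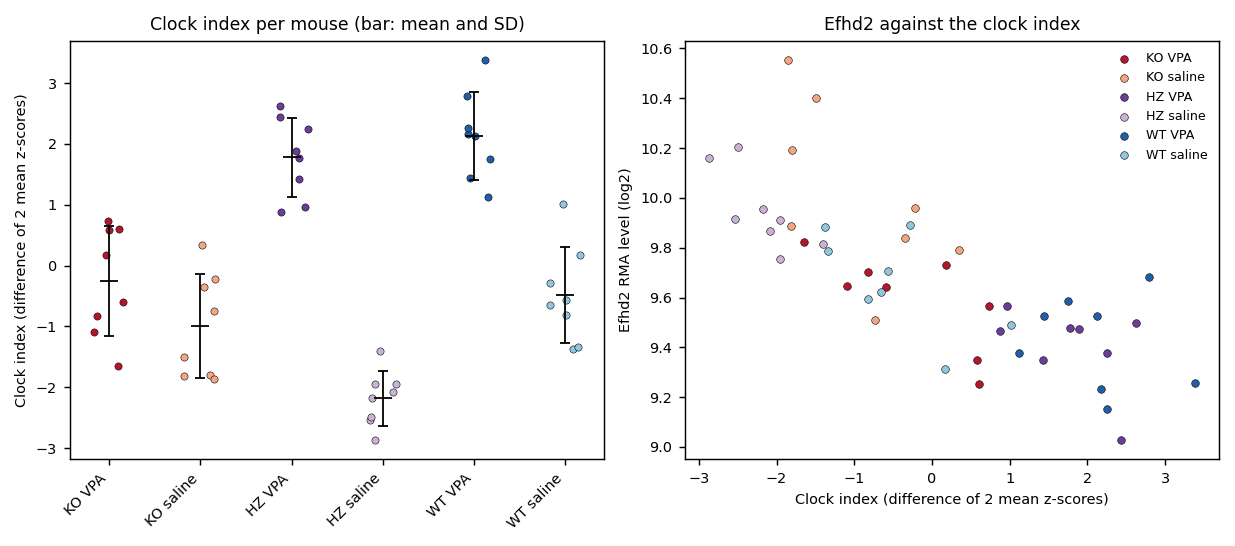
Left, the clock index of every mouse (difference of 2 mean z-scores) by group, with the mean and SD of 8 mice. Right, the Efhd2 level (log2) against that index, in which mice with a high index, mostly HZ and WT mice given VPA, have low Efhd2.

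The relatives and partners of the 9 genes mostly did not pass. Of 28 measured S100 proteins and annexins (without S100a10), 1 rose with VPA, Anxa2, the partner that S100a10 binds, by 0.20 (SE 0.06, adjusted p = 0.0268 by limma), with a median of -0.01 over the list. S100a11 differed by 0.18 (SE 0.09, adjusted p = 0.179). Of 13 EF-hand and actin-bundling proteins, 3 rose, led by Capn2, the catalytic subunit of a calpain protease, by 0.23 (SE 0.04, adjusted p = 0.000262) and Calu, a calcium-binding protein of the secretory pathway, by 0.20 (SE 0.05, adjusted p = 0.0117), with a median of 0.09. Efhd1, the closest relative of Efhd2, differed by -0.06 (SE 0.05).

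Of 13 genes of molybdenum cofactor synthesis and of the enzymes that use it, 1 rose, Mocs2, a subunit of the synthase that makes the cofactor's precursor, by 0.19 (SE 0.05, adjusted p = 0.0184 by limma), and the median was 0.04. The substrates of Mocos itself gave values of -0.17 (SE 0.09) for Xdh, xanthine dehydrogenase, and 0.22 (SE 0.11) for Aox3, an aldehyde oxidase, and neither passed. Among 36 TBC domain proteins, 3 rose and 6 fell, with a median of 0.01. Tbc1d10a fell by 0.26 (SE 0.05, adjusted p = 0.00164) and Tbc1d16 by 0.23 (SE 0.03, adjusted p = 4.45e-06), in the direction opposite to Tbc1d19, and all 24 treated mice stood below the saline mean for Tbc1d16.

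Of 15 partners of FOXK proteins in the SIN3 and BAP1 complexes, 1 fell, Asxl2, a cofactor of BAP1, by 0.16 (SE 0.03, adjusted p = 0.00116 by limma), and the median was 0.00. Foxk1, the paralog of Foxk2, differed by -0.06 (SE 0.07). None of 7 other FAM83 genes and none of 7 receptors related to Gpr39 passed, with medians of -0.08 and -0.09. Among 26 LY6 and uPAR domain genes, 1 rose, Ly6e, by 0.23 (SE 0.07, adjusted p = 0.0288), and 2 fell, of which Ly6g by 0.18 (SE 0.05, adjusted p = 0.0198), with a median of -0.06. These lists passed for 0% to 25% of their genes, beside 8.61% of all probesets.

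Markers of other liver cells moved with VPA too. Of 13 Kupffer cell markers, 7 rose, led by C1qb, a complement component, by 0.46 (SE 0.14, adjusted p = 0.0269 by limma) and Adgre1, the F4/80 antigen, by 0.41 (SE 0.13, adjusted p = 0.0333), and the mean level of the list ran from 8.27 to 9.73 in VPA-treated and from 8.29 to 9.48 in saline mice. Of 11 sinusoidal endothelial markers, 4 rose, by 0.26 for Clec4g and 0.23 for Cdh5, and the mean level of the list was 9.27 to 9.75 with VPA and 9.05 to 9.85 with saline. Stellate cell markers had 2 of 10 higher, Lrat by 0.39 and Dcn by 0.14, and 1 lower, Colec11 at -0.29. Cholangiocyte markers had 1 of 5 higher, Sox9 by 0.43, and 1 lower, Epcam at -0.12. Of 7 neutrophil markers, Retnlg rose by 0.16 and Ly6g stood at -0.18, and of 2 erythroid markers Slc4a1 stood at -0.21, both lower past the threshold. None of 8 lymphocyte and 6 hepatocyte markers passed. The part of these cells in the levels of the 9 genes was not tested.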

How the data were processed

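The authors extracted liver RNA with Trizol, hybridised it to Affymetrix Mouse Gene 1.0 ST arrays and processed the images in Expression Console 1.1.2800.28061 with RMA, which corrects the background, applies quantile normalization and summarises probes. The deposited values are therefore log2 levels, which ran from 2.12 to 14.8, and no further normalization was applied here. Quantile normalization sets every array to one distribution, so a shift common to all genes would not be seen. Arrays have no read depth, and the 8 mice per group limit the precision.

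Groups came from the sample labels. Probesets were named through the platform annotation by symbol (21789 with 1 symbol, 1621 with several and 12146 with none, which were tested but not named). The limma package (3.58.1, R 4.3.3) fitted 1 mean for each of the 6 groups (42 residual degrees of freedom, eBayes, Benjamini-Hochberg over 35556 probesets, threshold 0.05), after a test on simulated data. Correlations used values minus group means, and mice were shuffled within groups 100000 times. The clock index used 12 genes, Arntl, Clock, Cry1 and Nfil3 minus Dbp, Tef, Hlf, Nr1d1, Nr1d2, Per1, Per2 and Per3. Figures were drawn with matplotlib 3.10.9. The methods of the study describe a two-way ANOVA, which the fit without moderation of the variances follows.

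The 9 genes, the lists of relatives and markers and the clock index were chosen with earlier results of these data known. Named besides the 9 were, per gene, the 2 genes most like it over mice and, per list, the 2 with the largest difference among those that passed, with S100a11, Efhd1, Xdh, Aox3, Foxk1, Cenpm, Ppfibp2 and the genes named beside KO against WT chosen after their values were seen. Replicate numbers were not taken to pair mice, since the sample labels give a number only. Arrays with the same number in different groups correlated by over 0.1 in 53 of 120 pairs. Their mean correlation was 0.05, against -0.01 for arrays with other numbers. With the replicate block in the fit, 4004 probesets passed for VPA over the genotypes, against 3062 without it. What arrays of the same replicate number share is thus left out of the main fit. The sample descriptions hold another number, whose meaning is not given. It ran from 5 to 30 over saline and from 59 to 84 over VPA-treated mice, with a separate run for each group. Whatever follows that number cannot be told apart from VPA against saline, and its part was not tested. Alternatives were other variance estimates, array weights, centring, filters, fewer arrays, the replicate block, the clock index, a threshold of 0.01 and leaving out each array.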

Additional observations from a re-analysis of the deposited data

Results flagged for a closer look

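In 4 of 54 gene and group combinations, 1 mouse stood far from the other 7 of its group, by a gap that chance gives in about 1 in 20 groups (about 2.7 of 54). S100a10 was at 10.38 in KO saline replicate 4, where the next mouse was at 11.09, and at 11.67 in HZ VPA replicate 2, where the next was at 12.05. Efhd2 was at 9.03 in the same HZ VPA replicate 2, where the next was at 9.35. Foxk2 was at 8.39 in KO saline replicate 6, where the next was at 8.74.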

How the results depend on the processing

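Of 756 values of the 9 genes in genotype contrasts and differences of the VPA effect under alternatives, 720 kept their direction and their side of the threshold, 17 changed sign, none of them past the threshold, and 19 changed side. Of 423 values for VPA against saline, 366 kept both, 5 changed sign and 53 changed side, 15 of the 53 with the clock index. For KO against WT, 4 of the 9 genes passed, but 2 at a threshold of 0.01 and 2 with each array centred on its median. With arrays of these genotypes alone 2 passed, with the clock index 0, and with 1 mouse left out 2 to 4. Calls fell over all probesets too, from 1046 to 478 at 0.01, 904 with centring, 689 with those arrays and 262 with the clock index. For KO against WT in saline, 2 passed, but 4 with the replicate block (Efhd2 and Mocos added), 1 with only those arrays and 2 to 4 with 1 mouse left out. Of all probesets 281 passed there, 339 with the block, 112 with only those arrays and 102 to 476 with 1 mouse left out. The block left the counts of the 9 for VPA over the genotypes, for the genotypes over both treatments and for the interaction as they were. For VPA over the genotypes, 8 passed under every alternative run for it but the clock index, with 0, and 8 to 8 with 1 mouse left out. The setting with fewer arrays was not run for that contrast. Since the genes were chosen by their response to VPA in these mice, nothing is read from these counts. Among 226 list genes, 54 passed, but 21 at 0.01, 0 with the clock index and 45 to 64 with 1 mouse left out. Of all probesets 3062 passed for VPA, 1056 at 0.01 and 0 with the clock index. With the clock index the VPA difference of Efhd2 in HZ mice turned to 0.10, against -0.54 without it, and S100a10 and E130311K13Rik in KO against WT kept -0.39 and -0.26 with adjusted p of 0.0866 and 0.165. Over all probesets, leaving out 1 mouse moved the calls between 2334 and 4663 for VPA (3062 with all mice), 15 and 52 for the interaction (29, and 133 with array weights) and 747 and 1261 between KO and WT mice (1046). Of 36 pairs, 12 passed, 8 without the 2 farthest mice and 8 with the clock index removed, of which 7 passed in both. The index itself moves with VPA, so a fit that holds it cannot separate the drug from clock phase.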
